A study of Mus musculus with 4 samples.

Results

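The solute carriers are a large group of membrane transporters, described here in peritoneal macrophages of control mice and of mice in which the gene for the transcription factor GATA6 was targeted in myeloid cells. The genes were chosen by symbol: every annotated gene whose symbol begins with Slc and a digit was taken, except the iron exporter Slc40a1 and the phagosomal metal transporter Slc11a1. A gene was kept where a probe had a detection p-value under 0.05 on at least 2 arrays, and its probe with the highest mean stood for it. This gave 156 of the 354 such genes on the array, and they are 156 of the 11628 genes tested. Of the 156 genes, 132 were detected on all 4 arrays, 2 on neither control array and 5 on neither knockout array, and a gene kept through 1 group only had to be higher in that group. Of the other 198 genes, 177 were detected on 0 arrays and 21 on 1 array. At the detection threshold, the kept gene nearest to it was Slc25a48, whose second-lowest detection p-value was 0.0459, and the nearest gene outside it was Slc39a5, at 0.0502.

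The measurements are Illumina bead array intensities of total RNA from macrophages of the peritoneal cavity, with 1 array per sample and 2 samples per group. The control group is labelled only as control, and the labels do not say whether it carried Cre or a floxed allele. The other group, Mac-Gata6 KO, carries a floxed Gata6 allele and LysM-cre, in which Cre is expressed from the lysozyme M gene and so acts in macrophages and other myeloid cells. None of the 4 samples was treated, and all came from C57BL/6 mice aged 8 to 16 weeks. The labels do not say whether replicates came from separate animals, so the p-values rest on a spread between samples that may be technical only.

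Solute carriers move small molecules across the plasma membrane and across the membranes of lysosomes, mitochondria, the Golgi apparatus and the endoplasmic reticulum. Families are numbered by sequence, and members of a family mostly share a class of substrate, such as nucleosides, amino acids, zinc or sugars. In macrophages these carriers feed the cell and also return the products of digested particles from the lysosome to the cytosol. GATA6 is the transcription factor that sets the gene programme of the large macrophages resident in the peritoneal cavity.

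The brighter of 2 Gata6 probes read 13.77 and 13.66 in the control samples, and 13.07 and 12.83 in those of the knockout, in log2 normalised intensity, the scale of every level below. A second, dim probe read 6.60 and 6.44 in control and was detected on neither knockout array, at 5.31 and 5.65, at least 1.74-fold lower. It is not known whether either probe falls within the floxed segment, so they are a limited check of the labels, and signal of the brighter probe remained in the knockout. General macrophage markers had about the same summed level on all arrays, from 17.40 to 17.45 on the log2 scale. The sum adds unlogged intensities, so the brightest markers weigh most in it. Of all genes tested, 6.11% were called higher and 6.14% lower, the shares to set beside each marker count here. Of 10 tested macrophage markers 0 were called higher and 2 lower. These falls were Adgre1 (log2 change -1.56 ± 0.17, adjusted p = 0.00334) and Fcgr1 (-2.94 ± 0.13, adjusted p = 0.000152). Markers of small peritoneal macrophages rose, 10 of the 11 tested, with summed levels of 13.83 to 13.92 in control and 16.85 to 16.90 in the knockout. Of these, Ccr2 was detected on neither control array and so could only be higher. B cell markers were called higher for 5 of 5 tested (summed levels 9.79 to 9.82 against 10.85 to 11.04), while Ms4a1, Pax5 and Cr2 did not pass the detection filter. Erythroid markers were higher for 4 of 5 (8.59 to 8.67 against 10.62 to 10.73), a list that includes Tfrc, which macrophages also express. Hba-a1 and Hbb-bs among them were detected on neither control array and so could only be higher. Mast cell markers were higher for 1 of 4 (7.82 to 7.98 against 8.46 to 8.62), the 1 neutrophil marker tested was lower, the 1 marker tested for each of T and NK cells, eosinophils and dendritic cells was not called, and 0 of 11 mesothelial and stromal markers passed the filter. These marker shifts move with every group difference below, and their part in the results was not tested. In RNA from a whole sorted population, a change in the number of cells of a kind and a change in RNA per cell cannot be told apart.

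Among the 156 solute carrier genes, 19 rose and 8 fell in the knockout at an adjusted p under 0.05, and 129 did not pass the test. The detection filter fixed the direction of the rise of Slc39a12 and of the falls of Slc39a9, Slc25a48 and Slc37a1. These genes stay in the counts here, and all genes tested passed the same filter. Rises made up 12.2% of the carriers, beside 6.11% of all genes tested, and falls 5.13%, beside 6.14%. In both directions together the share was 17.3%, beside 12.3% of all genes. At a change of at least 2-fold, 14 of the 156 carriers were higher, against 3.2% of all genes, and 2 of the 156 were lower, against 2.86%. Without background correction the rises of Slc36a1, Slc16a10 and Slc39a10 and the fall of Slc7a4 were below 2-fold. The median log2 change was 0.11 over the carriers and -0.01 over all genes. Both knockout arrays lay above both control arrays for 64 carriers (41.03%, against 27.6% of all genes), and below them for 31 (19.9%, against 29.2%). The 64 include the 2 genes detected on neither control array, and the 31 include the 5 detected on neither knockout array. Groups that did not overlap in either direction made up 56.8% of all genes, and they overlapped for the remaining 61 carriers. The median difference between replicate arrays was 0.15 for the carriers within control and 0.20 within the knockout, and the median size of their change between groups was 0.27.

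**Figure D1:**
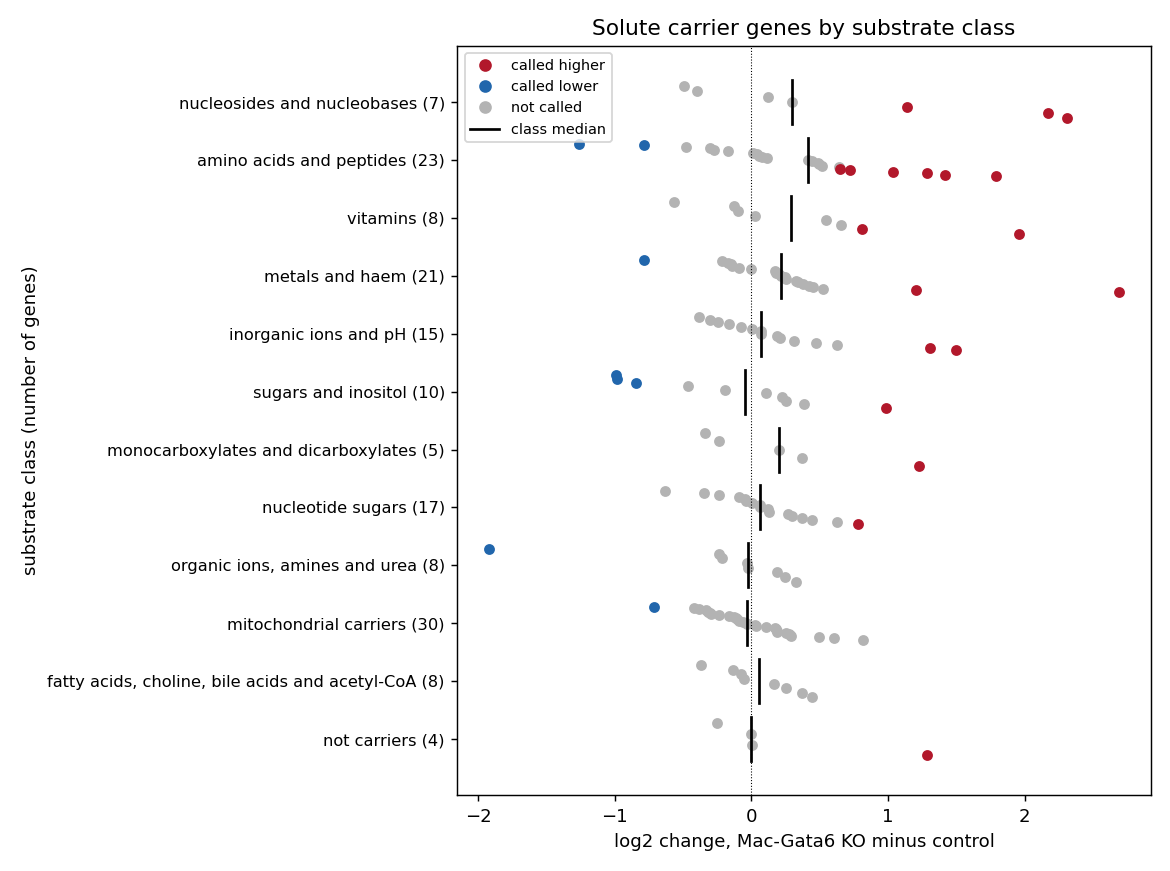
Log2 change of each of the 156 solute carrier genes, knockout minus control, grouped by substrate class on the vertical axis. Each point is 1 gene, coloured by whether it was called higher, called lower or not called, and the black bar is the median of the class. Of the 7 nucleoside genes 3 were called higher, and the 3 called falls of the sugar class lie near -1. The 30 genes of the mitochondrial class, all of the Slc25 family, have a median of -0.03.

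Nucleoside carriers included the largest rises that were measured above background in both groups. Of the 7 genes in the class, 3 rose, 0 fell and 4 did not pass the test (42.9% called, beside 12.3% of all genes). The median log2 change was 0.30. Slc28a2, a concentrative transporter that uses the sodium gradient to take up purine nucleosides and uridine, read 7.90 and 7.69 in control and 10.29 and 9.91 in the knockout. Both knockout arrays stood well above both control arrays, and the log2 change was 2.31 ± 0.18, or 4.95-fold (adjusted p = 0.000965). Its neighbouring paralogue Slc28a2b read 9.56 and 9.57 against 11.80 and 11.68, a change of 2.17 ± 0.14, or 4.51-fold (adjusted p = 0.00042). These genes lie on chromosome 2 of assembly GRCm38.p6, with 23788 bases between them, Slc28a2 at chr2:122426357-122461152 and Slc28a2b at chr2:122484941-122528040. They are close relatives, so each probe may also bind the other's transcript and the values are uncertain as to the member.

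Of the 3 equilibrative nucleoside transporters read, which carry nucleosides down their gradient, Slc29a1 passed the test. Slc29a1, the plasma membrane form also known as ENT1, read 9.55 and 9.52 in control and 10.59 and 10.76 in the knockout, a rise of 1.14 ± 0.14, or 2.2-fold (adjusted p = 0.00495). Neither knockout array came near the control values. A second Slc29a1 probe gave a log2 change of 1.87 ± 0.20. The lysosomal form Slc29a3 read 9.61 and 9.47 against 10.01 and 9.67, and the change of 0.30 ± 0.17 did not pass the test (adjusted p = 0.315). For Slc29a2, at 6.75 and 5.86 against 5.66 and 6.15, the groups overlapped (-0.40 ± 0.32, adjusted p = 0.483). Vesicular carriers belong to another family. Slc17a9, which loads nucleotides into vesicles, read 8.00 and 8.28 against 7.81 and 7.49 and also missed the threshold (-0.49 ± 0.18, adjusted p = 0.137).

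Enzymes that use nucleosides went in both directions. Of the 9 tested, 1 rose, 4 fell and 4 did not pass, beside 12.3% of all genes called. The median log2 change was -0.16. Ada, which deaminates adenosine, read 6.24 and 5.69 in control, where 1 of 2 arrays detected it, and 7.42 and 7.26 in the knockout (1.37 ± 0.21, adjusted p = 0.0107). Adk, which phosphorylates adenosine, read 12.16 and 12.25 against 11.57 and 11.46 (-0.69 ± 0.14, adjusted p = 0.0269). Aprt, which salvages adenine, read 12.39 and 12.40 against 11.20 and 11.36 (-1.12 ± 0.14, adjusted p = 0.00514). Both directions thus occurred among enzymes that act on adenosine or adenine. Nt5e, the ectoenzyme CD73 that makes extracellular adenosine from AMP, fell by 7.06 ± 0.16 on the log2 scale (adjusted p = 3.93e-05). Tk1 also fell (-0.68 ± 0.13, adjusted p = 0.0257).

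The start regions of 4 carriers are printed here because they belong to the neighbouring nucleoside carriers and to the carriers with the largest fitted rise and the largest fall. Each is the RefSeq sequence from 250 bases before to 50 after an annotated transcript start, 5′ to 3′ on the gene's strand, in assembly GRCm38.p6. Slc28a2 is chr2:122426185-122426484 (+), Slc28a2b is chr2:122484691-122484990 (+), Slc39a12 is chr2:14388148-14388447 (+) and Slc22a17 is chr14:54913083-54913382 (-). The start used lies 78 bases inside the outer end of the gene for Slc28a2 and 82 bases inside it for Slc39a12, and at that end for the others. Capitals mark the letters AGATAA or AGATAG or TGATAA or TGATAG on either strand, the spelling of the GATA family motif.
Slc28a2: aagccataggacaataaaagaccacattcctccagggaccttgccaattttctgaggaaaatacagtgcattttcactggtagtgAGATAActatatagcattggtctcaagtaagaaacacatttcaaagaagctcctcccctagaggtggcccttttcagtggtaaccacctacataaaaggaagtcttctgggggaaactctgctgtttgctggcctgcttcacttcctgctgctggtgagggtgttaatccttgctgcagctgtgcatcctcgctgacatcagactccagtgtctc
Slc28a2b: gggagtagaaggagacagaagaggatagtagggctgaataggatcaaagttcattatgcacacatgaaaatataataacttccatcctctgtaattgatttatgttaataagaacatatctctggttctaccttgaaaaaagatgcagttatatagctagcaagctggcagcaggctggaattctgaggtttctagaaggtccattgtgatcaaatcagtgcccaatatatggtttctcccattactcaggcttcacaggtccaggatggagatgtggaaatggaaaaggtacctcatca
Slc39a12: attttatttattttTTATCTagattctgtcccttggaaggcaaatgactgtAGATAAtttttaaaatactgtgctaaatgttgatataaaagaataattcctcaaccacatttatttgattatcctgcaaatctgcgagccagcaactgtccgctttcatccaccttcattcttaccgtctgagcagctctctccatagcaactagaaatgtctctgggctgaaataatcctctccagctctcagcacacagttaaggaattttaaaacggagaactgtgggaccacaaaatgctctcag
Slc22a17: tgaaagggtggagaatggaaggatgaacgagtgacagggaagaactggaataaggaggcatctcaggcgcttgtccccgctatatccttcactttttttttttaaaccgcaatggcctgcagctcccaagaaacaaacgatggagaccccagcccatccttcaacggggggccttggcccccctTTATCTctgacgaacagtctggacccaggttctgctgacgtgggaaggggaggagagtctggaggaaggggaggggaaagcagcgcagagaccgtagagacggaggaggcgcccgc
The Slc28a2 sequence held 1 match, its first base at -165 from the start used, and that of Slc28a2b held 0. Laid side by side without gaps, these paralogues had the same base at 74 of 300 positions. The Slc39a12 sequence held 2 matches, at -236 on the reverse strand and at -199 on the gene's strand, and the Slc22a17 sequence held 1, at -66 and on the reverse strand.

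The same letters were found in 8 of the 27 start regions of genes called higher (29.6%, 16 genes) and in 1 of the 6 of carriers called lower (16.7%, 6 genes). They were in 25 of the 133 regions of carriers not called (18.8%). Over all carriers they were in 34 of 166 regions (20.5%), over the genes tested in 18.9% and over all start regions of this length in 29.8%. Of the 27 regions, 8 belong to Slc29a1, and without the scaffold gene Slc9a3r2 the count is 6 of 25 (24%). A match is a run of letters in this window and is not a measured binding site. RefSeq start regions were matched by symbol for 123 of the 156 carriers and 22 of the 27 called ones.

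Among 23 amino acid and peptide carriers, 6 rose, 2 fell and 15 did not pass the test (34.8% called, beside 12.3% of all genes), and 17 of the 23 changes were positive, with a median log2 change of 0.42. Slc66a1, also known as PQLC2, exports cationic amino acids from the lysosome and read 7.26 and 7.14 in control and 9.05 and 8.94 in the knockout. Its rise of 1.79 ± 0.14, or 3.46-fold, was the largest of the class (adjusted p = 0.000965). Slc36a1, a proton-coupled carrier of small neutral amino acids found on lysosomes, read 5.62 and 5.85 against 6.92 and 7.12, with the gene detected on 1 of 2 control arrays. The change was 1.29 ± 0.16, or 2.44-fold (adjusted p = 0.00486), and both knockout arrays stood above both control arrays. Without background correction the log2 changes of these genes were smaller, 1.20 for Slc66a1 and 0.51 for Slc36a1, and both stayed called.

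The other 4 rises were Slc7a8, Slc16a10, Slc6a6 and Slc15a4. Slc7a8, the light chain of the exchanger LAT2, read 10.32 and 10.39 in control and 11.99 and 11.56 in the knockout (1.42 ± 0.18, 2.67-fold, adjusted p = 0.00561). A second probe of Slc7a8 gave a change of 1.31 ± 0.14. Slc16a10, a carrier of aromatic amino acids in a family named for monocarboxylates, read 8.89 and 8.74 against 9.84 and 9.85 (1.03 ± 0.14, 2.05-fold, adjusted p = 0.00653). All 4 knockout values of Slc7a8 and Slc16a10 stood above their control values. The taurine transporter Slc6a6 read 13.53 and 13.28 against 14.18 and 14.07 (0.72 ± 0.15, 1.65-fold, adjusted p = 0.0322). Slc15a4, a carrier of peptides and histidine in the endolysosome, read 10.74 and 10.71 against 11.51 and 11.24 (0.65 ± 0.15, 1.57-fold, adjusted p = 0.0440), and a second probe gave 0.83 ± 0.18. In Slc6a6 and Slc15a4 the groups did not overlap either, but the gaps were smaller.

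Both falls in the class were members of the cationic amino acid family. Slc7a2, also known as CAT2 and a carrier of arginine, read 9.13 and 9.24 in control and 8.42 and 8.37 in the knockout, which left 57.9% of the control signal (-0.79 ± 0.14, adjusted p = 0.0158). Slc7a4, an orphan relative, read 7.43 and 7.41 against 6.52 and 5.80, or 41.8% of control (-1.26 ± 0.24, adjusted p = 0.0242). The knockout arrays lay below both control arrays in each case. The Slc7a4 change was -0.57 without background correction. The calls of Slc6a6, Slc15a4 and Slc7a2 were lost on leaving out any 1 array, and that of Slc7a4 on leaving out either control array.

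Other amino acid carriers had smaller differences that did not pass the test. Slc38a7, a lysosomal exporter of glutamine, differed by 0.49 ± 0.15 (adjusted p = 0.0880) and Slc43a2, a carrier of large neutral amino acids, by 0.49 ± 0.13 (adjusted p = 0.0703). Slc66a2 read 12.77 and 12.64 against 13.22 and 13.07 (0.44 ± 0.14, adjusted p = 0.107). Slc7a7, a light chain that exchanges cationic for neutral amino acids, read 10.24 and 10.48 against 10.90 and 10.65 (0.42 ± 0.16, adjusted p = 0.164). Slc15a3, a lysosomal peptide carrier related to Slc15a4, differed by -0.17 ± 0.13 (adjusted p = 0.478). Slc3a2, the heavy chain that carries light chains such as Slc7a8 to the surface, read 6.08 and 6.38 against 7.17 and 6.56 (0.64 ± 0.23, adjusted p = 0.142), and it is named after its values were seen. Of 7 heavy and light chains of that kind on the array, 3 were tested. Of these, 1 rose and 2 did not pass, beside 12.3% of all genes called.

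Genes that respond to or consume amino acids showed some rises. In the list of amino acid response genes 3 of 14 rose, 0 fell and 11 did not pass, beside 12.3% of all genes called. The median log2 change was 0.20. Asns, asparagine synthetase, read 7.63 and 7.55 in control and 8.38 and 8.53 in the knockout (0.86 ± 0.14, adjusted p = 0.0132). Sesn2, a leucine sensor that restrains mTORC1, read 6.65 and 6.62 against 7.88 and 7.69 (1.15 ± 0.14, adjusted p = 0.00502). Ddit4 rose by 0.78 ± 0.17 (adjusted p = 0.0345). Of 9 enzymes that use amino acids, 2 rose, 1 fell and 6 did not pass, beside 12.3% of all genes called. The rises were Ass1 (0.79 ± 0.14, adjusted p = 0.0164) and Glul (0.65 ± 0.14, adjusted p = 0.0317). The fall was Arg1, the arginase that breaks down arginine, at 14.04 and 13.99 against 13.36 and 13.51 (-0.58 ± 0.14, adjusted p = 0.0484).

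**Figure D2:**
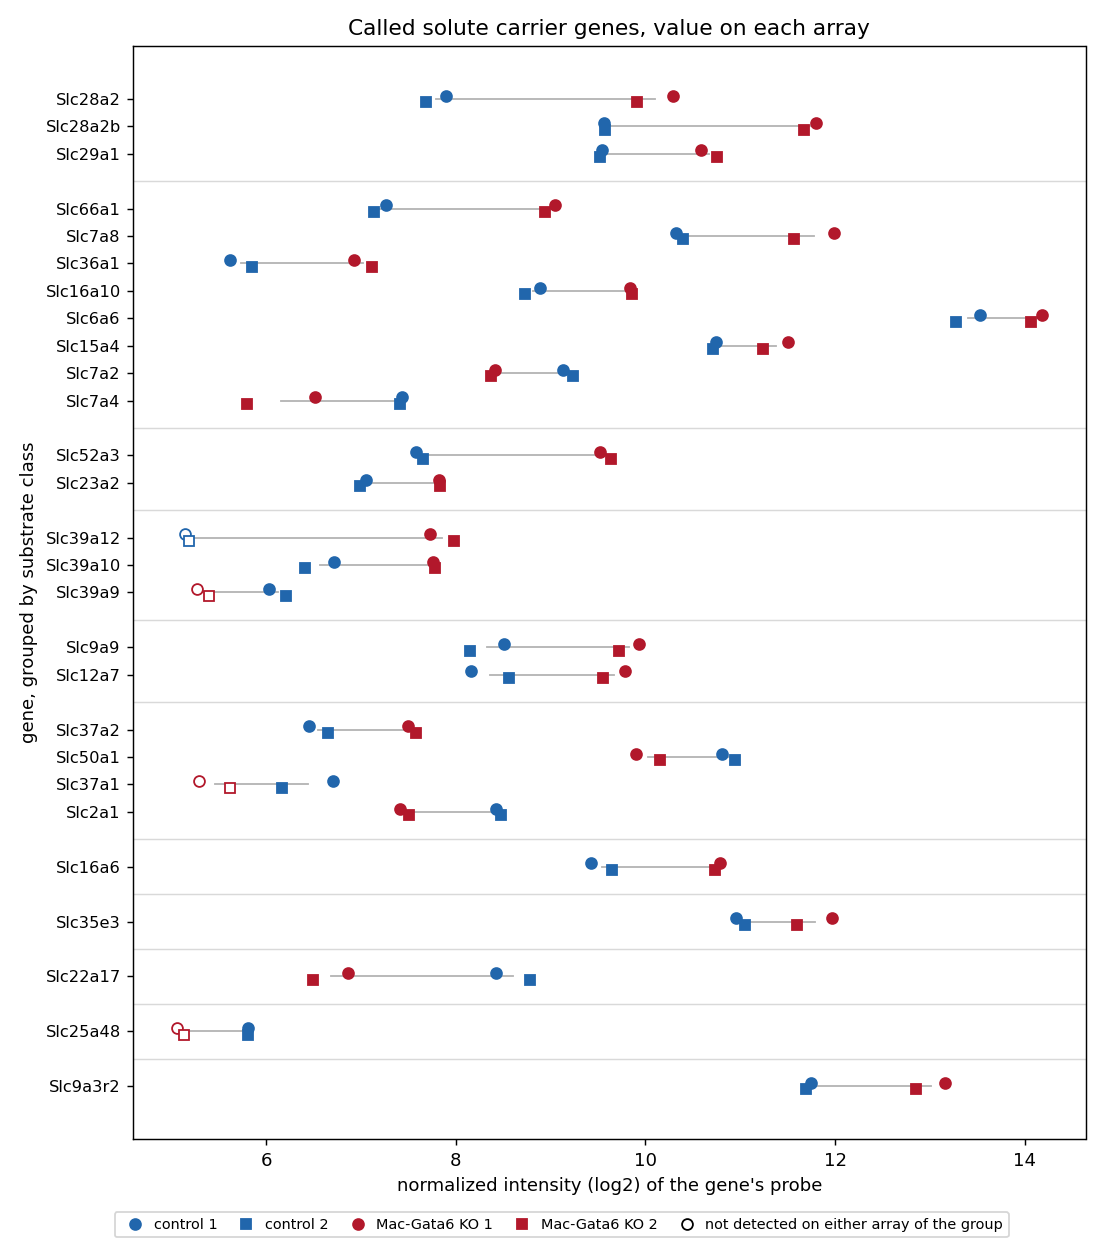
Levels of the 27 called solute carrier genes on each of the 4 arrays, in log2 normalised intensity, with control in blue, knockout in red and circles and squares for replicates 1 and 2. Open symbols mark genes not detected on either array of that group, and lines join the group means. In every row the control points and the knockout points do not overlap, which the detection filter fixed for genes with open symbols. Among genes detected in both groups the spacing is widest for Slc28a2 and Slc28a2b among the rises and for Slc22a17 among the falls.

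Carriers found on lysosomes or endosomes were also read as a subset that crosses the substrate classes. Of 16 such genes, 4 rose, 0 fell and 12 did not pass, beside 12.3% of all genes called. Their median log2 change was 0.38. The rises were Slc66a1, Slc36a1, Slc15a4 and Slc9a9, the last an exchanger of sodium or potassium for protons in endosomes. Slc9a9 read 8.51 and 8.15 in control and 9.93 and 9.73 in the knockout (1.499 ± 0.18, 2.83-fold, adjusted p = 0.00421). The subset overlaps the classes described above and below, so its counts are not additional evidence.

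Vitamin carriers gave 2 rises and 0 falls among 8 genes (25% called, beside 12.3% of all genes), with a median log2 change of 0.29. Slc52a3, a riboflavin transporter, read 7.59 and 7.66 in control and 9.52 and 9.64 in the knockout (1.96 ± 0.14, 3.89-fold, adjusted p = 0.000609). Slc23a2, the sodium-coupled ascorbate carrier, read 7.05 and 6.99 against 7.83 and 7.83 (0.81 ± 0.13, 1.75-fold, adjusted p = 0.0134), a call that was lost on leaving out any 1 array. Without background correction the changes were 1.44 for Slc52a3 and 0.46 for Slc23a2. The gap between groups was many times the spread within them for both genes. The thiamine carrier Slc19a2 read 8.91 and 8.64 against 9.28 and 9.58 and did not pass (0.66 ± 0.18, adjusted p = 0.0645). Slc46a3, a lysosomal member of the folate carrier family, read 8.96 and 9.06 against 9.63 and 9.49 (0.55 ± 0.14, adjusted p = 0.0569). Slc5a6, which carries biotin and pantothenate, differed by -0.10 ± 0.16 (adjusted p = 0.755).

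Among 21 metal and haem carriers, 2 rose, 1 fell and 18 did not pass the test (14.3% called, beside 12.3% of all genes). The median log2 change was 0.22. All called members belong to the Slc39 family, whose proteins, also called ZIP, bring zinc and related metals into the cytosol. Slc39a12 was not well above background in control, at 5.15 and 5.19, and read 7.73 and 7.98 in the knockout. It was at least 4.36-fold higher there (adjusted p = 0.00029), and its fitted log2 change of 2.69 ± 0.15 became 1.20 without background correction. Slc39a10 read 6.72 and 6.42 against 7.76 and 7.79 (1.21 ± 0.16, 2.31-fold, adjusted p = 0.00601), and its change was 0.63 without background correction. Both knockout arrays were above both control arrays for Slc39a10, while Slc39a12 passed the detection filter through the knockout alone and so could only be higher. Slc39a9 read 6.04 and 6.21 in control. In the knockout it was not well above background, at 5.27 and 5.40, at least 1.32-fold lower (fitted log2 change -0.79, adjusted p = 0.0207). Slc39a9 passed the detection filter through control alone and so could only be lower. Its call was lost without background correction and in the authors' processed values. An intensity trend in the variance model and the demand for a change beyond 1.5-fold also ended it. The call was lost on leaving out either knockout array and could not be computed on leaving out either control array.

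The remaining metal carriers differed less. Slc39a7, which releases zinc from the endoplasmic reticulum and Golgi, differed by 0.53 ± 0.15 (adjusted p = 0.0751). Slc11a2, the proton-coupled iron carrier DMT1, differed by 0.43 ± 0.14 (adjusted p = 0.107). The copper importer Slc31a1 (-0.15 ± 0.13, adjusted p = 0.549) and the zinc transporter Slc30a5 (-0.17 ± 0.18, adjusted p = 0.599) had changes smaller than or close to their errors.

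Carriers of inorganic ions and of protons gave 2 rises and 0 falls among 15 genes (13.3% called, beside 12.3% of all genes). The median log2 change was 0.07. Besides Slc9a9, described above, Slc12a7 rose, a cotransporter that moves potassium and chloride out of the cell. It read 8.17 and 8.56 in control and 9.79 and 9.55 in the knockout (1.30 ± 0.19, 2.47-fold, adjusted p = 0.00822), and the call was lost without knockout replicate 1. The other members of the class did not pass. Slc12a9, an orphan of the same family, differed by 0.63 ± 0.21 (adjusted p = 0.120) and Slc8b1, the sodium-calcium exchanger of mitochondria, by 0.47 ± 0.15 (adjusted p = 0.107). The anion exchanger Slc4a2 differed by 0.31 ± 0.15 (adjusted p = 0.258). Slc12a2, which moves sodium, potassium and chloride inward, differed by -0.38 ± 0.13 (adjusted p = 0.123).

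Among 10 sugar and inositol carriers, 1 rose, 3 fell and 6 did not pass (40% called, beside 12.3% of all genes). The median log2 change was -0.04. One of the falls, Slc37a1, passed the detection filter through control alone and so could only be lower. Slc2a1, the facilitative glucose transporter GLUT1, read 8.42 and 8.48 in control and 7.42 and 7.50 in the knockout, or 50.3% of the control signal (-0.99 ± 0.13, adjusted p = 0.0069). Without background correction the Slc2a1 change was -0.64. Slc50a1, of the SWEET family of sugar carriers, read 10.80 and 10.95 against 9.90 and 10.15, or 55.6% (-0.85 ± 0.16, adjusted p = 0.0200). Both knockout arrays were below both control arrays for each gene. Slc37a1 and Slc37a2, which exchange sugar phosphates for phosphate in the endoplasmic reticulum, went in opposite directions. Slc37a1 read 6.71 and 6.17 in control and in the knockout was not well above background, at 5.30 and 5.62, at least 1.65-fold lower (adjusted p = 0.0401, fitted log2 change -0.98, and -0.35 without background correction). Slc37a2 read 6.45 and 6.65 against 7.50 and 7.58 (0.99 ± 0.14, 1.98-fold, adjusted p = 0.00891), and its change was 0.49 without background correction.

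These sugar carrier calls differed in how they held up. Slc2a1 stayed called on leaving out each array in turn, while Slc50a1 stayed called only without knockout replicate 2 and Slc37a2 only without control replicate 2. The Slc37a1 call was lost without either knockout array and could not be computed without either control array. Slc37a4, the glucose 6-phosphate transporter of the same family, differed by -0.47 ± 0.26 (adjusted p = 0.312). Slc2a6, a glucose transporter family member of intracellular membranes, read 12.03 and 12.06 against 12.18 and 12.35 (0.22 ± 0.14, adjusted p = 0.371). Slc45a4 (0.39 ± 0.17, adjusted p = 0.207) and Slc2a8 (-0.19 ± 0.21, adjusted p = 0.617) did not pass.

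Of 5 carriers of mono- and dicarboxylates, 1 rose and 4 did not pass (20% called, beside 12.3% of all genes). The median log2 change was 0.20. Slc16a6, of the monocarboxylate transporter family, read 9.43 and 9.65 in control and 10.79 and 10.74 in the knockout (1.22 ± 0.15, 2.34-fold, adjusted p = 0.00445). Other probes of Slc16a6 gave changes of 1.44 ± 0.20 and 0.92 ± 0.41. Slc16a3, the lactate exporter MCT4, read 6.77 and 7.15 against 6.90 and 6.55, with overlapping groups (-0.24 ± 0.20, adjusted p = 0.505). The others were Slc16a13 (0.37 ± 0.21, adjusted p = 0.311), Slc16a9 (-0.34 ± 0.27, adjusted p = 0.485) and the dicarboxylate carrier Slc13a3 (0.20 ± 0.27, adjusted p = 0.686). A second Slc16a13 probe, detected in both groups at a similar level, went the other way (-0.36 ± 0.18). Emb, a chaperone that brings monocarboxylate carriers to the surface, read 6.66 and 5.73 in control, where 1 of 2 arrays detected it, and 8.34 and 8.30 in the knockout (2.12 ± 0.30, adjusted p = 0.00754). Emb belongs to a list of carrier chaperones and of pumps that set ion gradients. Of 10 tested, 3 rose, 1 fell and 6 did not pass, beside 12.3% of all genes called. The other calls were Fxyd2 (4.67 ± 0.22, adjusted p = 0.000163), Atp2a2 (0.58 ± 0.14, adjusted p = 0.0461) and Atp2a3 (-1.63 ± 0.14, adjusted p = 0.00149).

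Nucleotide sugar carriers, which supply the Golgi and endoplasmic reticulum for glycan synthesis, had 1 rise among 17 genes (5.88% called, beside 12.3% of all genes). The other 16 did not pass, with a median log2 change of 0.06. Slc35e3, an orphan of that family, read 10.96 and 11.04 in control and 11.97 and 11.59 in the knockout (0.78 ± 0.17, 1.72-fold, adjusted p = 0.0364), a call kept only without knockout replicate 2 when 1 array was left out. Slc35a2, the UDP-galactose carrier, read 7.71 and 8.06 against 7.37 and 7.13 (-0.64 ± 0.18, adjusted p = 0.0744). The Slc35a2 groups did not overlap, yet the change missed the threshold. Slc35d2 differed by 0.45 ± 0.14 (adjusted p = 0.0922) and Slc35b1 by 0.27 ± 0.13 (adjusted p = 0.255). Slc35a4 (0.06 ± 0.13, adjusted p = 0.801) and the GDP-fucose carrier Slc35c1 (-0.04 ± 0.15, adjusted p = 0.881) had changes below their errors.

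Slc22a17 was the 1 called gene among 8 carriers of organic ions, amines and urea (12.5% called, beside 12.3% of all genes). The class had a median log2 change of -0.03. Slc22a17 also had the largest fall of all the carriers. Its protein, in an organic cation family, is known as a receptor for the iron-binding protein lipocalin-2. The probe read 8.43 and 8.78 in control and 6.87 and 6.50 in the knockout, which left 26.4% of the control signal (-1.92 ± 0.20, 3.79-fold lower, adjusted p = 0.00263). The gap between groups was several times the difference between replicates. A second, dim Slc22a17 probe gave 0.10 ± 0.42, and with the mean of both probes the change was -0.91 and not called. Without background correction the change of the brighter probe was -1.15. Slc17a5, the lysosomal sialic acid exporter, differed by 0.33 ± 0.14 (adjusted p = 0.193). The carnitine carrier Slc22a5 differed by -0.03 ± 0.14 (adjusted p = 0.926) and Slc22a18 by -0.24 ± 0.14 (adjusted p = 0.331).

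The class of mitochondrial carriers was the largest, with 3.33% called beside 12.3% of all genes. It was set by membership of the Slc25 family, and the location of each protein was not checked. Slc8b1 of mitochondria is counted with the ion carriers. Of 30 genes, 0 rose, 1 fell and 29 did not pass, with 14 positive and 16 negative changes and a median log2 change of -0.03. The fall was Slc25a48, at 5.81 and 5.81 in control. In the knockout it was not well above background at 5.06 and 5.14, at least 1.06-fold lower (fitted log2 change -0.71, adjusted p = 0.0221). It is the gene nearest the detection threshold. Slc25a48 passed the detection filter through control alone and so could only be lower. Its call was lost without background correction, with an offset of 50 and in the authors' processed values. An intensity trend in the variance model and the demand for a change beyond 1.5-fold also ended it. The call was lost on leaving out either knockout array and could not be computed on leaving out either control array. Slc25a5, which exchanges ADP and ATP across the inner membrane, read 14.02 and 14.20 against 14.45 and 14.29 (0.25 ± 0.15, adjusted p = 0.333). The phosphate carrier Slc25a3 differed by 0.19 ± 0.20 (adjusted p = 0.611) and Slc25a45 by 0.11 ± 0.14 (adjusted p = 0.670).

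The uncalled Slc25 genes with the smallest p-values were Slc25a24 and Slc25a22. Slc25a24, a calcium-regulated exchanger of ATP-magnesium for phosphate, read 9.50 and 9.49 against 10.01 and 9.97 (0.50 ± 0.13, adjusted p = 0.0637). The glutamate carrier Slc25a22 was not well above background in control, at 5.14 and 5.51. It read 5.83 and 6.45 in the knockout, at least 1.33-fold higher (fitted log2 change 0.82, adjusted p = 0.0876). Neither passed the test.

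Carriers of fatty acids, choline, bile acids and acetyl-CoA gave 0 calls among 8 genes, beside 12.3% of all genes called. Their changes ran from -0.37 to 0.44, with a median of 0.06. Slc10a3, an orphan of the bile acid carrier family, read 10.35 and 10.36 in control and 10.81 and 10.79 in the knockout (0.44 ± 0.13, adjusted p = 0.0870). The fatty acid transport protein Slc27a1 differed by -0.37 ± 0.14 (adjusted p = 0.141), and the choline carrier family members Slc44a2 and Slc44a1 by 0.17 ± 0.16 and -0.08 ± 0.14 (adjusted p = 0.577 and 0.766).

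The symbol rule also took in 4 genes that are not carriers. Slc9a3r2, a PDZ scaffold that tethers membrane proteins, read 11.75 and 11.70 in control and 13.16 and 12.85 in the knockout (1.28 ± 0.16, 2.44-fold, adjusted p = 0.00506), and a second probe gave 1.70 ± 0.27. Its relative Slc9a3r1 read 11.90 and 11.84 against 11.78 and 11.96, with overlapping groups (adjusted p = 0.995). Slc7a6os (adjusted p = 0.994) and Slc4a1ap (-0.25 ± 0.15, adjusted p = 0.356) did not pass. The counts of 19 rises and 27 calls given for the whole group include Slc9a3r2.

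**Figure D3:**
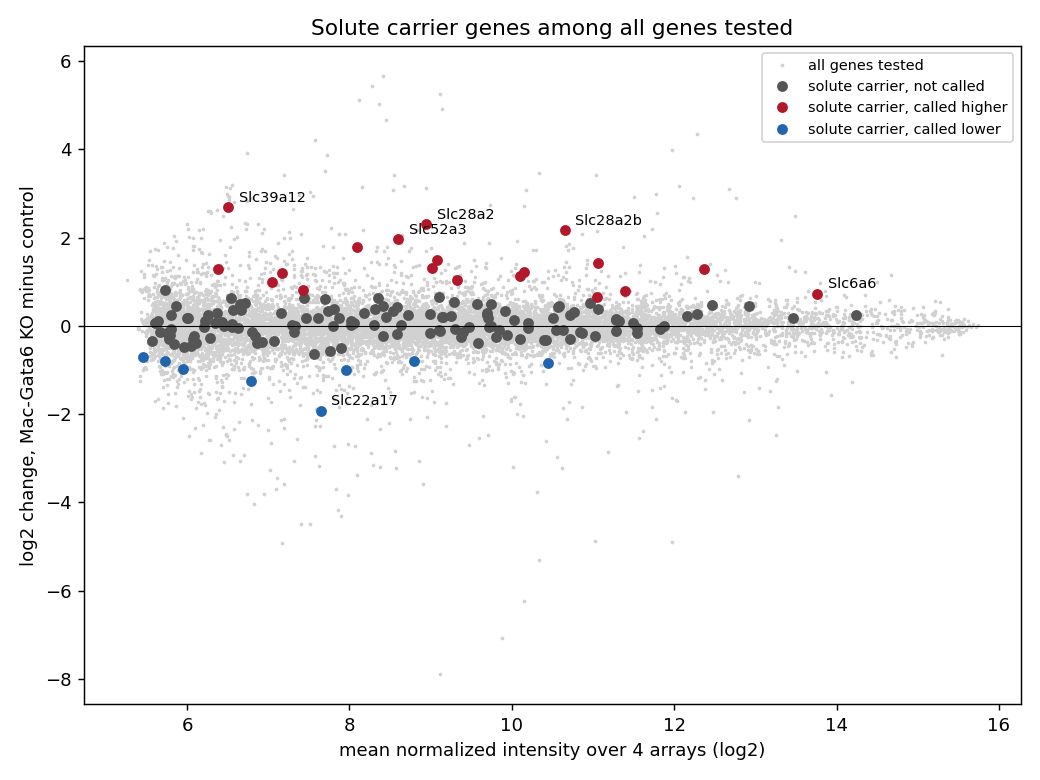
Log2 change of each solute carrier gene against its mean level over the 4 arrays, in log2 normalised intensity. Large points are solute carriers, coloured by call, and small grey points are all genes tested. The called rises extend over nearly the whole range of levels and reach a fitted 2.69 for Slc39a12, and the called falls reach -1.92 for Slc22a17.

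Membrane transporters whose symbols do not begin with Slc and a digit did not rise more often than they fell. Their list includes Slco2a1 and Slco3a1, solute carriers that the symbol rule leaves out. Of 28 tested out of 46 on the array, 2 rose, 5 fell and 21 did not pass, beside 12.3% of all genes called. The median log2 change was 0.08. Abcg1, which exports cholesterol, read 8.96 and 8.61 in control and 10.12 and 10.45 in the knockout (1.503 ± 0.19, adjusted p = 0.0057). Abcc3, which exports organic anions and conjugates, read 9.93 and 9.59 against 8.11 and 8.46 (-1.48 ± 0.19, adjusted p = 0.00595). Abcb1b, a multidrug exporter, read 9.66 and 9.68 against 9.04 and 8.91 (-0.70 ± 0.14, adjusted p = 0.0245). Abcd4 rose (0.91 ± 0.15, adjusted p = 0.0128) and Abcd3 fell (-0.64 ± 0.13, adjusted p = 0.0304). Abcb4 and Slco2a1 were detected on neither knockout array and so could only be lower. They were at least 1.89-fold and 1.18-fold lower (fitted log2 changes -1.87 and -0.96, adjusted p = 0.00067 and 0.0180).

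The calls differed in how far they depended on the processing and on single arrays. Slc28a2, Slc28a2b, Slc66a1, Slc52a3 and Slc9a9 were called in all 11 alternative settings that used the 4 arrays and on leaving out each array in turn. Slc7a8, Slc16a10, Slc39a10, Slc16a6, Slc29a1, Slc2a1 and Slc9a3r2 were lost only when a change beyond 1.5-fold was demanded. Slc39a12 was called in each setting that could measure it, which left out those without 1 of the knockout arrays and the filter that asked for detection on all 4 arrays. Slc36a1 was lost only to the 1.5-fold demand and to a filter that asked for detection on all 4 arrays, which removed it. Testing every gene with no detection filter, which raised the number of genes tested from 11628 to 29453, ended the calls of Slc6a6, Slc15a4, Slc7a4, Slc35e3 and Slc37a1. Other probes of called carriers moved the same way for 6 of 7 probes, the exception being Slc22a17.

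**Figure D4:**
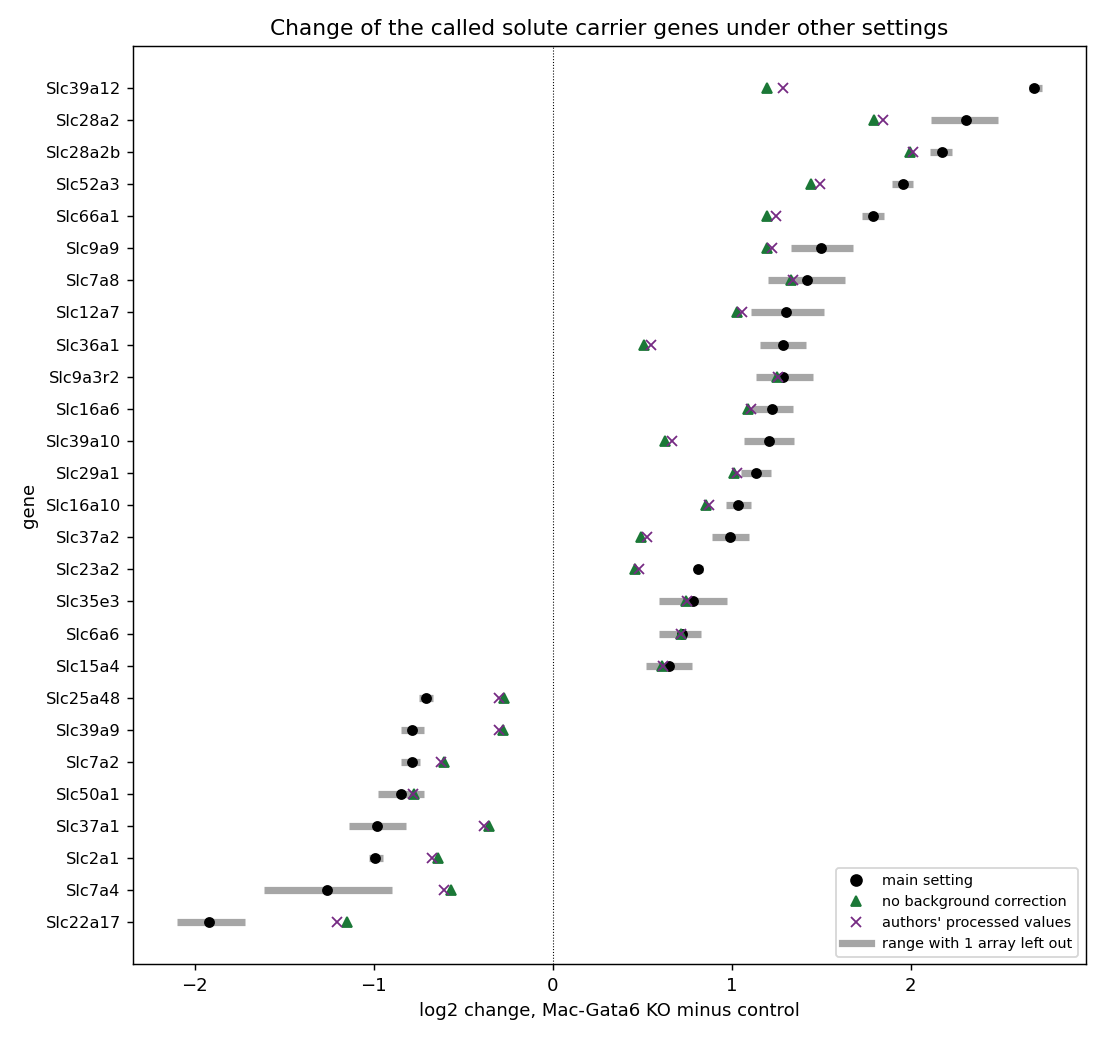
Log2 change of the 27 called solute carrier genes, knockout minus control, as reported (black circles), without background correction (green triangles) and in the authors' processed values (purple crosses), with a grey bar for the range on leaving out 1 array. All points keep the side of 0 they have in the reported setting, and the changes without background correction are nearer to 0, with Slc39a12 at 1.20 in place of 2.69.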

How the data were processed

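Total RNA of 2 control and 2 Mac-Gata6 KO samples was hybridised to Illumina bead arrays. The authors deposited a table of non-normalized intensity and detection p-value by probe, per the file headers. Their processed intensity values stand in another deposited table, and the software behind it is not given in the sources. Of 45281 probes, the platform annotation gave 1 gene symbol to 34885, several to 18 and none to 10378.

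Intensities were background-corrected, quantile-normalized and taken to log2 by neqc (limma 3.58.1, R 4.3.3, offset 16). Probes with a detection p-value under 0.05 on at least 2 arrays were kept (16713), and the probe with the highest mean stood for a gene. This left 11628 genes, counting 2428 probes without 1 symbol. Groups were compared with lmFit and eBayes, two-sided, with no block, and Benjamini-Hochberg adjusted p-values under 0.05 over all genes were called. The ± values are the standard errors of that fit, with n = 2 per group.

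Where neither array of a group detected a probe, it is called not well above background there and its fold is a bound. The adjusted p-value given with a bound is that of the fitted change, not of the bound. For the bound, the value on each array of that group was raised, where lower, to the lowest value of any detected probe. Between 35.5% and 36.4% of probes were detected on an array, and the small number of arrays limits precision. Data were also simulated with the mean levels of these 11628 genes and their variances as moderated by eBayes. There the test recovered 92 of 100 genes shifted by 1 log2 unit and 100 of 100 shifted by 2, with 13 unchanged genes called. Moderated variances differ less between genes than observed ones, so these counts describe the simulation and may not hold for the data.

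Substrate classes followed family numbers, with some genes placed by their known substrate. The genes named are every called carrier and, in each class, the uncalled carriers with the highest level or the smallest p. Called genes of the other lists are also named, except most of the cell type markers. The carriers and all lists were chosen with earlier results of these data known. Same-numbered replicates did not deviate together (correlation -0.125), so they were not treated as pairs. Alternatives changed the background correction, offset, scaling, filter, probe choice, variance model, fold threshold, replicate block and arrays used.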

Additional observations from a re-analysis of the deposited data

How the results depend on the processing

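Rises outnumbered falls among the carriers under every setting tried. Over all genes, the counts of 711 higher and 714 lower became 1090 and 1155 without background correction, 1100 and 1142 in the authors' processed values, 1089 and 1134 under the trended, robust variance model, 184 and 187 when a change beyond 1.5-fold was demanded, and 249 to 390 and 238 to 416 with 1 array left out. Among the carriers, the 19 higher became 30 without background correction, 31 in the authors' values, 30 with the trend, 6 beyond 1.5-fold and 12 to 15 with 1 array left out. The lowest count, 12, was without knockout replicate 1. The 8 lower became 1 beyond 1.5-fold and 2 to 4 with 1 array left out, 2 without either control array and 3 and 4 without knockout replicates 1 and 2. The share of carriers called was 24.4% without background correction, beside 19.3% of all genes, and 10% without knockout replicate 1, beside 5.21%. Fewer samples remain when an array is left out, and for the other settings the cause was not tested.

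With the replicate number as a block, 18 carriers were higher and 8 lower, and the calls of Slc15a4 and Slc35e3 were lost. The crossed pairing of the replicate block, chosen after seeing the data, gave 19 and 9.

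Over all settings the sign turned for 0 of the 27 called carriers and for 52 of the 129 not called, 13 of them among the 48 uncalled carriers named in the text, whose values follow. With the mean of all kept probes the log2 changes were -0.00231 for Slc44a2, 0.16 for Slc44a1, 0.10 for Slc22a18 and 0.056 for Slc7a6os. Slc7a6os was at 0.0033 without background correction, 0.00021 with an offset of 50, 0.024 with median scaling and 0.0031 in the authors' values. Median scaling gave 0.056 for Slc35c1 and 0.038 for Slc22a5. With 1 array left out, the log2 changes ranged from -0.136 to 0.543 for Slc13a3, -0.404 to 0.0699 for Slc16a9, -0.0975 to 0.0470 for Slc22a5, -0.0748 to 0.438 for Slc25a3, -0.853 to 0.0455 for Slc29a2, -0.465 to 0.0778 for Slc2a8, -0.147 to 0.0615 for Slc35c1, -0.244 to 0.0537 for Slc5a6, -0.235 to 0.235 for Slc7a6os and -0.0898 to 0.0886 for Slc9a3r1. No block by slide was run, since no slide is named. Signal over background limits the dim carriers: those not well above background in 1 group have only bounds.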

Other observations

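Several well-known carriers on the array were not among the 156 genes, and they are named here after their detection was seen. The glucose transporter Slc2a3, the monocarboxylate transporter Slc16a1, the cystine exchanger light chain Slc7a11 and the arginine carrier Slc7a1 were detected on 0 arrays, and the glutamine carrier Slc1a5 on 1. Detection depends on the probe, so these transcripts are below detection by these probes and are not shown to be absent.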
